A study of Rattus norvegicus with 15 samples.

Results

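The tricarboxylic acid (TCA) cycle enzymes examined here were 9 genes: Cs, Idh3a, Idh3g, Ogdh, Suclg1, Suclg2, Sdha, Fh and Mdh2. They were found by gene name among the array probes outside the controls (Fh appears in the array files under its older name Fh1), and each probe was kept apart. The rule gave 14 probes of 22503 probes with a gene name, 9 of 17338 named genes. Cs, Ogdh and Suclg2 had 2 probes each, Fh had 3, and the other 5 genes had 1. All 14 probes were well above background on 15 of 15 arrays, and all 14 were among the 17028 probes tested.

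Intestinal mRNA of 15 male rats was measured with 1 one-color array per rat, in 3 groups of 5. Wistar rats are the nondiabetic strain from which Goto-Kakizaki (GK) rats, a nonobese strain with inherited type 2 diabetes, were bred, and they were not operated on. GK-Sham-PF rats were GK rats given a sham operation at 16 weeks of age and pair-fed. GK-S-30 rats were GK rats given Roux-en-Y gastric bypass (RYGB) at 16 weeks of age, with a Roux limb (RL) of 30 cm, the stretch of jejunum that is joined to the stomach and then carries food. All rats were killed 14 weeks after the operation date of the GK rats, after a night without food. In GK-S-30 rats, a 5-cm piece of the RL was taken, starting 5 cm below the join with the stomach, and in the other groups a 5-cm piece lying 21 to 26 cm below the ligament of Treitz, which is the matching stretch of gut. GK-Sham-PF and Wistar rats differ in strain, sham operation and pair feeding together, and these cannot be told apart. In comparisons, GK-S-30 rats are also called bypassed rats and GK-Sham-PF rats sham rats, after their operations.

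In the TCA cycle, acetyl-CoA enters the mitochondrion's central ring of reactions and its carbon leaves as CO2, while electrons pass to NADH and to ubiquinone for respiration. Citrate synthase (Cs) joins acetyl-CoA to oxaloacetate, isocitrate dehydrogenase (of which Idh3a is the catalytic subunit and Idh3g a regulatory subunit) and 2-oxoglutarate dehydrogenase (Ogdh) release CO2, and succinyl-CoA ligase (alpha subunit Suclg1, with Suclg2 as the GTP-forming beta subunit) makes the nucleotide triphosphate of the ring. Succinate dehydrogenase (flavoprotein subunit Sdha), fumarase (Fh) and malate dehydrogenase (Mdh2) close it. The enterocyte runs this ring to a large extent on glutamine as well as on glucose carbon, and citrate that leaves the mitochondrion is a source of acetyl-CoA for fatty acid and cholesterol (CHOL) synthesis.

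The probes are 60-base oligonucleotides, and those of the genes on which the results turn are shown to let the pairs of probes for 1 gene be compared. Positions are those of the array annotation in the rat build rn4. In the sequence of the probe at the end of the Cs coding region (chr7:1652129-1652188, plus strand), capitals mark the stop codon at bases 41 to 43, after which 17 bases follow. The other Cs probe has its 60 bases spread over chr7:1643387-1644782 on the plus strand, so that it crosses an intron, and lies upstream with its start 8.7 kb away. The Ogdh probe shown lies at chr14:87030293-87030352 on the plus strand, 60.7 kb upstream of the start of the brighter Ogdh probe, and that of Suclg2 is placed at chr4:129995822-129995833 on the minus strand, a span of 12 bases that covers less than the length of the probe.
Cs A_43_P15355: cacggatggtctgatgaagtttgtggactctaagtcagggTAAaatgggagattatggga
Cs A_44_P549445: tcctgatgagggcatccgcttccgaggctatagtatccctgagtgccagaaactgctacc
Ogdh A_44_P869808: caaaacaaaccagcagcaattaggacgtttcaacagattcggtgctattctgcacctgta
Suclg2 A_43_P20118: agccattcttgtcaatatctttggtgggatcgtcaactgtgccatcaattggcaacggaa

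Values below are log2 signals after quantile normalization, in which 1 unit is a 2-fold change, and differences between groups are log2 fold changes from 1 limma model over the 15 arrays, with p-values adjusted by the Benjamini-Hochberg method over 17028 probes and a threshold of 0.05. Signals of different probes depend on the probe as well as on the mRNA, so that no probe's level was set against another's. Before normalization, Wistar replicate 3 and replicate 5 of GK-Sham-PF had dimmer signals than the other 13 arrays (75th percentile of the processed signal 207 and 208, against 302 to 357), and values that rest on them are given with and without them. Smooth muscle markers were higher in the GK-S-30 pieces. Of 14 smooth muscle probes, 10 rose in bypassed against sham rats (median log2 fold change 1.19), 11 in bypassed against Wistar rats and 0 passed between GK-Sham-PF and Wistar (limma, 0 also by Tukey p and at an unadjusted p under 0.05), and their mean log2 signal was 12.5 to 12.85 in GK-S-30, 11.06 to 12.19 in GK-Sham-PF and 11.24 to 11.98 in Wistar rats. Of all probes, 4.77% passed as higher in bypassed against sham rats and 11.9% in bypassed against Wistar rats, while 7.88% passed between GK-Sham-PF and Wistar. Epithelial markers such as Vil1, Fabp1 and Alpi were well above background, and their mean log2 signal was 14.73 to 15.19 in GK-S-30, 14.97 to 15.45 in GK-Sham-PF and 15 to 15.43 in Wistar rats. Of 12 epithelial probes 0 passed by limma between bypassed and sham rats and 0 between sham and Wistar rats (in each 2 by Tukey p and 1 at an unadjusted limma p under 0.05), where 8.36% and 7.88% of all probes did. Between GK-S-30 and Wistar rats 2 passed as lower, where 12.2% of all probes did. In such bulk tissue, fewer cells of a type and less RNA per cell cannot be told apart, and the part of tissue makeup in the differences below was not tested.

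Only part of the member probes passed in each comparison, which does not show the others to be unchanged. Among those that passed, Cs was higher in both groups of GK rats than in Wistar rats, and Suclg1 was lower in bypassed than in sham rats. The Suclg1 call and the Cs calls between GK-Sham-PF and Wistar rats were lost in several settings, as given below. With slide as a fixed block no member probe passed in any comparison, where 1.92%, 1.23% and 1.57% of all probes did. Between bypassed and sham rats, 1 of 14 member probes passed (Suclg1, lower), where 8.36% of all tested probes passed and 3.59% passed as lower. Between GK-Sham-PF and Wistar rats, 2 of 14 passed, both for Cs and higher, against 7.88% of all probes, or 3.74% as higher. Between GK-S-30 and Wistar rats 4 of 14 passed (both Cs probes, Idh3a and 1 of the 2 Suclg2 probes), all higher, against a background of 24.1%, or 11.9% as higher. By the methods' comparison, a one-way model with Tukey's correction for the 3 pairs and no adjustment over probes, 3, 4 and 4 of 14 passed, against 15.1%, 13.9% and 27.5% of all probes. The median log2 fold change over the 14 probes was 0.06, 0.10 and 0.11 in these 3 comparisons, against -0.02, 0.01 and -0.01 over all probes. It was positive for 8, 12 and 9 of the 14 probes, and the share over all probes was not computed. The median size of the change was 0.12, 0.10 and 0.15 for the members and 0.16, 0.15 and 0.23 for all probes. The arrays of the 2 groups did not overlap for 3, 4 and 4 of the 14 probes, where this was so for 8.41%, 9.06% and 18.3% of all probes. The 3 comparisons share arrays, so that their values are not independent of each other.

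**Figure D1:**
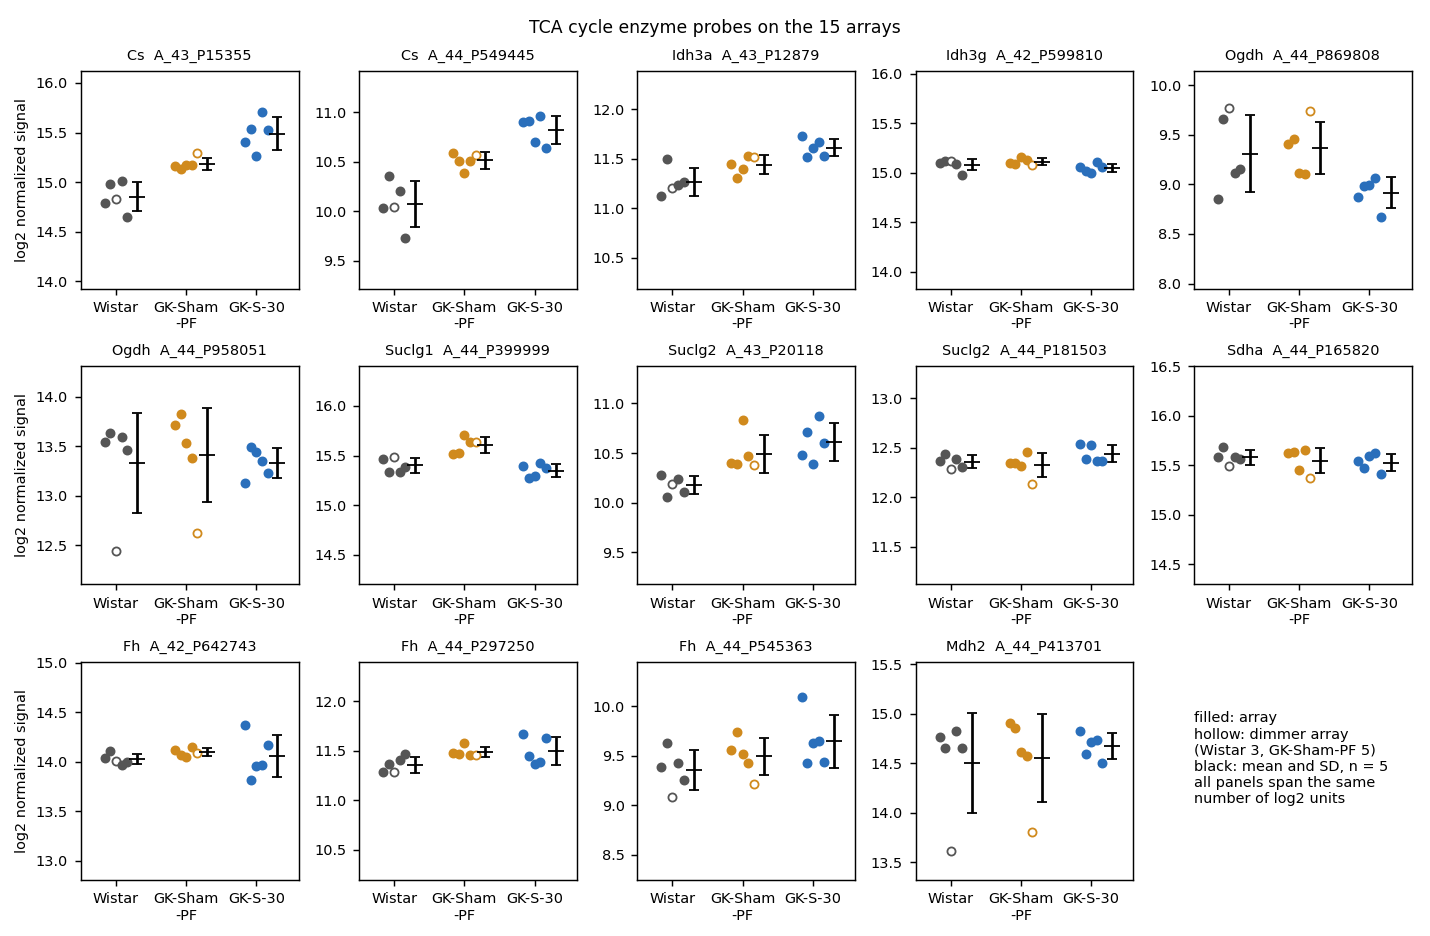
Log2 normalized signal (vertical axis, each panel spanning the same number of log2 units) of each of the 14 member probes on the 5 arrays of each group, with mean and SD in black and the 2 dimmer arrays as hollow points. Both Cs panels climb from Wistar over GK-Sham-PF to GK-S-30 rats, the Suclg1 panel is highest in GK-Sham-PF rats, and the dimmer arrays lie about 1 unit low for Mdh2 and for Ogdh probe A_44_P958051.

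Citrate synthase, which catalyzes the entry of acetyl-CoA, had the most regular pattern. With the probe at the end of the coding region (A_43_P15355), log2 signals were 14.79, 14.98, 14.83, 15.01 and 14.65 in Wistar, 15.16, 15.13, 15.17, 15.17 and 15.29 in GK-Sham-PF and 15.40, 15.54, 15.26, 15.71 and 15.53 in GK-S-30 rats. No Wistar array reached the lowest GK-Sham-PF array, and only GK-S-30 replicate 3 lay within the range of GK-Sham-PF. The signal was higher by a log2 fold change of 0.33 in GK-Sham-PF than in Wistar rats (1.26-fold, standard error (SE) 0.10, n = 5 and 5, limma adjusted p = 0.0473) and by 0.64 in GK-S-30 than in Wistar rats (1.56-fold, SE 0.10, limma adjusted p = 0.000235). The step from GK-Sham-PF to GK-S-30 rats was 0.30 (95% interval 0.10 to 0.51) and did not pass over all probes (limma adjusted p = 0.0685).

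The upstream Cs probe across the intron (A_44_P549445) gave 10.03, 10.35, 10.04, 10.20 and 9.73 in Wistar, 10.59, 10.51, 10.38, 10.51 and 10.57 in GK-Sham-PF and 10.90, 10.91, 10.70, 10.96 and 10.64 in GK-S-30 rats. Here the 3 groups did not overlap at all. The log2 fold changes were 0.45 (SE 0.11, limma adjusted p = 0.0206) for GK-Sham-PF against Wistar, 0.31 (SE 0.11, limma adjusted p = 0.105) for bypassed against sham rats and 0.75 (1.69-fold, SE 0.11, limma adjusted p = 0.000176) for GK-S-30 against Wistar rats. The differences between the 2 Cs probes were at most 0.12 in size in any comparison and did not pass an exact permutation test over arrays (smallest exact p = 0.0952, 0.428 after Benjamini-Hochberg adjustment over 18 such pairs of probes).

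Whether the Cs steps passed depended on the setting, while their direction did not. With Tukey's correction, the step from GK-Sham-PF to GK-S-30 passed with both probes. Without the 2 dimmer arrays the step from Wistar to GK-Sham-PF was 0.30 and 0.42 and missed the threshold with both probes (limma adjusted p = 0.101 and 0.0542). Over 10 and 9 other settings and the omission of each array, the adjusted p of that step ran from 0.0347 to 0.694 and from 0.00893 to 0.589. No slide holds both GK-S-30 and Wistar arrays (4 of 5 Wistar arrays share a slide of their own, as do 3 of 5 GK-S-30 arrays). With slide as a fixed block, the difference between these groups was 0.61 and 0.83 and did not pass (limma adjusted p = 0.304 and 0.206). That fit rests on the comparisons within a slide, so these went the same way but are no separate check. On the slide that holds 2 arrays each of sham and bypassed rats the 2 probes differed by 0.24 and 0.37. On the slide with 3 GK-Sham-PF arrays and 1 Wistar array they differed by 0.36 and 0.46. In the block fit these steps did not pass (limma adjusted p = 0.512 and 0.365, and 0.694 and 0.589).

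**Figure D2:**
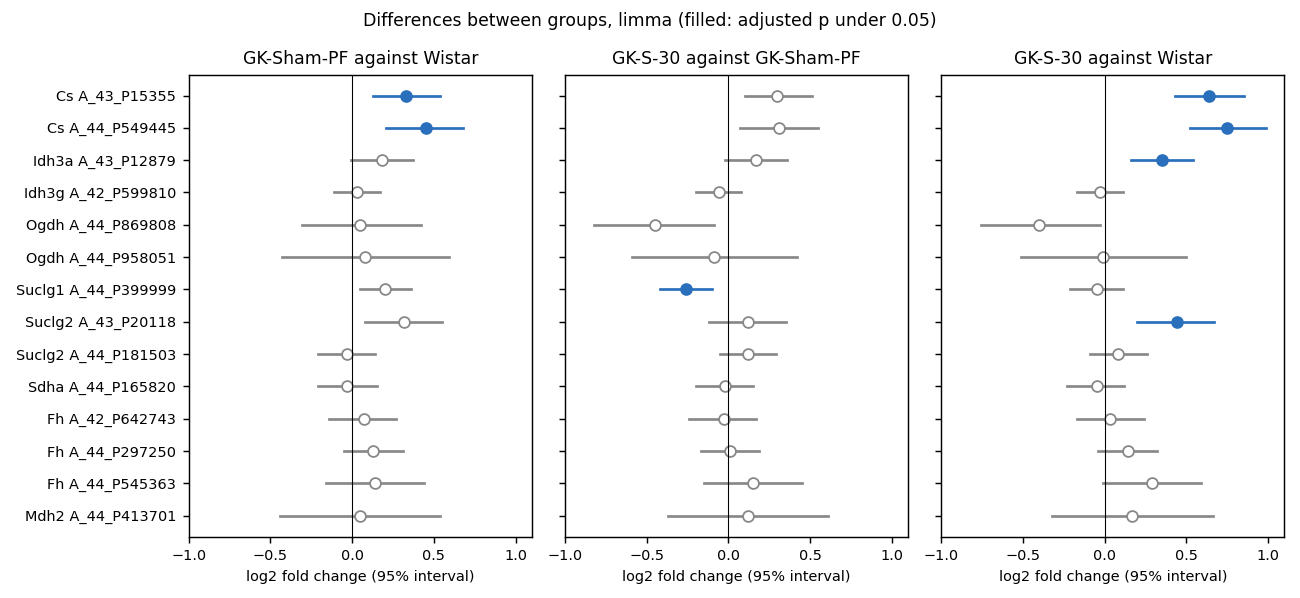
Log2 fold change (horizontal axis) with its 95% interval for the 14 member probes in the 3 comparisons, filled blue where the limma adjusted p was under 0.05. Filled points are both Cs probes against Wistar in sham and bypassed rats, Idh3a and Suclg2 probe A_43_P20118 in GK-S-30 against Wistar rats, and Suclg1, on the lower side, in bypassed against sham rats.

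Of the subunits of the NAD-dependent isocitrate dehydrogenase, 2 are members, and the difference between their changes was not tested. The catalytic subunit Idh3a (A_43_P12879, chr8:58154871-58154934, plus strand) had log2 signals of 11.12, 11.50, 11.20, 11.23 and 11.26 in Wistar, 11.45, 11.30, 11.40, 11.53 and 11.52 in GK-Sham-PF and 11.73, 11.52, 11.61, 11.67 and 11.53 in GK-S-30 rats. All GK-S-30 arrays lay above all Wistar arrays, while GK-Sham-PF arrays overlapped with both. Idh3a rose by 0.35 in GK-S-30 against Wistar rats (1.28-fold, SE 0.09, limma adjusted p = 0.00949), in steps of 0.18 (limma adjusted p = 0.285) and 0.17 (limma adjusted p = 0.27) that did not pass.

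The regulatory subunit Idh3g (A_42_P599810, chrX:159701384-159701443, minus strand) had SDs of 0.06, 0.03 and 0.04 in the 3 groups, with signals of 14.98 to 15.12 in Wistar, 15.08 to 15.16 in GK-Sham-PF and 15 to 15.11 in GK-S-30 rats. Its log2 fold change was 0.03 between GK-Sham-PF and Wistar (95% interval -0.11 to 0.17), -0.06 between bypassed and sham rats (-0.20 to 0.08) and -0.03 between GK-S-30 and Wistar rats (-0.17 to 0.11). The upper bound of each interval lay below the Cs change in the same comparison, but that change has an interval of its own. For GK-Sham-PF against Wistar it ran from 0.13 to 0.54 with Cs probe A_43_P15355, which overlaps that of Idh3g.

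Cs was also compared with other members on the same array, which removes only what both probes share there. Since Idh3g varied little, the difference from it largely restates the Cs signal and is no separate support. The Cs signal minus the Idh3g signal was -0.31, -0.14, -0.29, -0.08 and -0.33 in Wistar, 0.06, 0.04, 0.01, 0.04 and 0.21 in GK-Sham-PF and 0.34, 0.52, 0.26, 0.60 and 0.47 in GK-S-30 rats. Only changes of this difference between groups have a meaning, since its size depends on the 2 probes. No 2 groups overlapped. The difference was higher by 0.30 in GK-Sham-PF than in Wistar rats, by 0.37 in bypassed than in sham rats and by 0.67 in GK-S-30 than in Wistar rats, each with a two-sided exact permutation p = 0.00794, the smallest that 5 against 5 arrays can give, and 0.0159 after Benjamini-Hochberg adjustment over 6 comparisons. Over the scalings and omissions of arrays tried, the adjusted permutation p stayed between 0.0119 and 0.0343.

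The same was tried with the brighter Ogdh probe as partner, and it did not give a clear order. Cs minus Ogdh was 1.25, 1.35, 2.39, 1.42 and 1.19 in Wistar, 1.45, 1.31, 1.64, 1.79 and 2.67 in GK-Sham-PF and 2.27, 2.05, 1.82, 2.36 and 2.30 in GK-S-30 rats. The highest value in each of the first 2 groups was that of the dimmer array, on which the Ogdh signal was low. The changes were 0.26 (exact permutation p = 0.46), 0.39 (exact permutation p = 0.167) and 0.65 (exact permutation p = 0.0476, adjusted 0.0714) in the order used for Idh3g. Without the 2 dimmer arrays they were 0.25 (adjusted permutation p = 0.114), 0.61 and 0.86 (adjusted permutation p = 0.0238 for both).

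**Figure D3:**
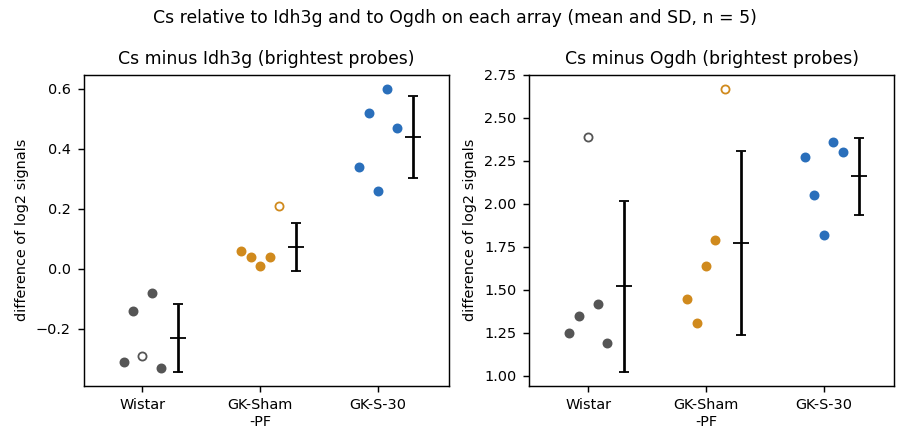
Difference of log2 signals on each array between the brightest Cs probe and the brightest Idh3g or Ogdh probe (vertical axes), by group, with mean and SD in black and the 2 dimmer arrays hollow. Against Idh3g the 3 groups form separate steps (-0.33 to -0.08, 0.01 to 0.21 and 0.26 to 0.60). Against Ogdh the hollow points, at 2.39 and 2.67, lie above all others.

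The 2 probes for Ogdh, the E1 component of the 2-oxoglutarate dehydrogenase complex, differed on the 2 dimmer arrays. With the upstream probe (A_44_P869808) signals were 8.85, 9.66, 9.77, 9.12 and 9.16 in Wistar, 9.41, 9.46, 9.12, 9.11 and 9.74 in GK-Sham-PF and 8.87, 8.98, 8.99, 9.07 and 8.67 in GK-S-30 rats. All GK-S-30 arrays lay below all GK-Sham-PF arrays. The log2 fold change was -0.45 (SE 0.17, limma adjusted p = 0.125), and -0.36 without the 2 dimmer arrays.

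With the brighter Ogdh probe (A_44_P958051, chr14:87091041-87091100, plus strand) signals were 13.54, 13.63, 12.44, 13.59 and 13.46 in Wistar, 13.71, 13.82, 13.53, 13.38 and 12.62 in GK-Sham-PF and 13.13, 13.49, 13.44, 13.35 and 13.23 in GK-S-30 rats. The 2 dimmer arrays lay far below their groups, by 1.11 and 0.99 under the mean of the other 4 arrays, whereas with the upstream probe the same 2 arrays lay 0.57 and 0.46 above it. Bypassed against sham rats gave -0.09 (95% interval -0.59 to 0.42, limma adjusted p = 0.88), or -0.28 without the 2 dimmer arrays (limma adjusted p = 0.0982). Within groups the 2 Ogdh probes correlated with r = -0.48 over 15 arrays and with 0.58 over the 13 arrays without the dimmer ones. Their changes between bypassed and sham rats differed by -0.37, which did not pass (exact permutation p = 0.167, 0.463 after adjustment over the 18 pairs).

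Suclg1, the alpha subunit shared by both succinyl-CoA ligases, was the member that passed between bypassed and sham rats. Its probe (A_44_P399999, chr4:106601409-106601468, plus strand) gave 15.47, 15.33, 15.49, 15.33 and 15.38 in Wistar, 15.52, 15.53, 15.71, 15.64 and 15.64 in GK-Sham-PF and 15.39, 15.27, 15.29, 15.42 and 15.37 in GK-S-30 rats. Every GK-Sham-PF array lay above every array of the other 2 groups, which overlapped with each other. The fall from GK-Sham-PF to GK-S-30 was -0.26 (0.837-fold, SE 0.07, limma adjusted p = 0.0448), the rise from Wistar to GK-Sham-PF was 0.20 (SE 0.07, limma adjusted p = 0.124), and GK-S-30 differed from Wistar rats by -0.05 (95% interval -0.21 to 0.11). Both the fall and the rise passed with Tukey's correction.

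The call for Suclg1 was a narrow one. It was lost with scaling to the 75th percentile of each array, where the fall was -0.17 (limma adjusted p = 0.412), and when any 1 array other than Wistar replicate 3 was left out (log2 fold change -0.28 to -0.23, limma adjusted p 0.0524 to 0.107), and over all settings the adjusted p ran from 0.015 to 0.412. On the slide with arrays of both groups the fall was -0.31.

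The 2 probes for Suclg2, the GTP-specific beta subunit, gave different values for GK rats against Wistar rats. With A_43_P20118 signals were 10.28, 10.06, 10.19, 10.24 and 10.11 in Wistar, 10.40, 10.39, 10.83, 10.47 and 10.38 in GK-Sham-PF and 10.48, 10.71, 10.39, 10.87 and 10.60 in GK-S-30 rats. All 10 arrays of GK rats lay above all 5 Wistar arrays. The log2 fold change was 0.32 for GK-Sham-PF against Wistar (SE 0.11, limma adjusted p = 0.102) and 0.44 for GK-S-30 against Wistar rats (1.35-fold, SE 0.11, limma adjusted p = 0.00968).

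With the brighter Suclg2 probe A_44_P181503 (chr4:129996119-129996178, minus strand) signals were 12.28 to 12.44 in Wistar, 12.13 to 12.46 in GK-Sham-PF and 12.37 to 12.54 in GK-S-30 rats, and the same comparisons gave -0.03 (95% interval -0.21 to 0.14) and 0.08 (-0.09 to 0.26). The 2 probes differed by 0.35 in their change from Wistar to GK-Sham-PF (exact permutation p = 0.00794, 0.143 after Benjamini-Hochberg adjustment over 18 pairs of probes). Between bypassed and sham rats both gave 0.12. Which of the 2 follows the transcript was not tested.

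Sdha, the flavoprotein of succinate dehydrogenase (A_44_P165820, chr1:29764220-29764279, plus strand), had signals of 15.49 to 15.69 in Wistar, 15.37 to 15.66 in GK-Sham-PF and 15.41 to 15.62 in GK-S-30 rats. The 3 groups overlapped. Its log2 fold changes lay between -0.05 and -0.02, with 95% intervals that together ran from -0.23 to 0.15.

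Fumarase (Fh) was read by 3 probes. The brightest (A_42_P642743) gave 13.97 to 14.11 in Wistar, 14.05 to 14.15 in GK-Sham-PF and 13.82 to 14.37 in GK-S-30 rats, A_44_P297250 gave 11.28 to 11.47, 11.45 to 11.58 and 11.36 to 11.67, and A_44_P545363 gave 9.08 to 9.63, 9.22 to 9.74 and 9.43 to 10.09. The groups overlapped with all 3 probes. GK-S-30 replicate 1 was the highest GK-S-30 array with each of them, at 14.37, 11.67 and 10.09. The log2 fold changes ran from -0.03 to 0.15 between bypassed and sham rats, from 0.07 to 0.14 between GK-Sham-PF and Wistar and from 0.03 to 0.29 between GK-S-30 and Wistar rats, and the smallest limma adjusted p among these 9 values was 0.148.

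Mitochondrial malate dehydrogenase (Mdh2, A_44_P413701, chr12:22025592-22025651, minus strand) had signals of 14.76, 14.65, 13.61, 14.83 and 14.65 in Wistar, 14.91, 14.86, 14.61, 14.57 and 13.81 in GK-Sham-PF and 14.83, 14.59, 14.71, 14.73 and 14.50 in GK-S-30 rats. The 2 dimmer arrays again lay far below the rest, by 1.11 and 0.92 under the mean of the other 4 arrays of their groups. Bypassed against sham rats gave 0.12 (95% interval -0.37 to 0.61), and -0.07 without those arrays (limma adjusted p = 0.714). The within-group SD of Mdh2 was 0.50 in Wistar and 0.44 in GK-Sham-PF rats with them and 0.09 and 0.17 without them.

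The low values of Mdh2 and of the brighter Ogdh probe on the same 2 arrays were shared with probes outside the cycle. Of all tested probes, 665 (3.91%) were lower by more than 0.8 on both arrays than on the other 4 arrays of the group. Within groups Ogdh (A_44_P958051) and Mdh2 correlated with r = 0.94 over 15 arrays and 0.38 over the 13 others. The 2 Cs probes correlated with r = 0.69 in both cases.

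**Figure D4:**
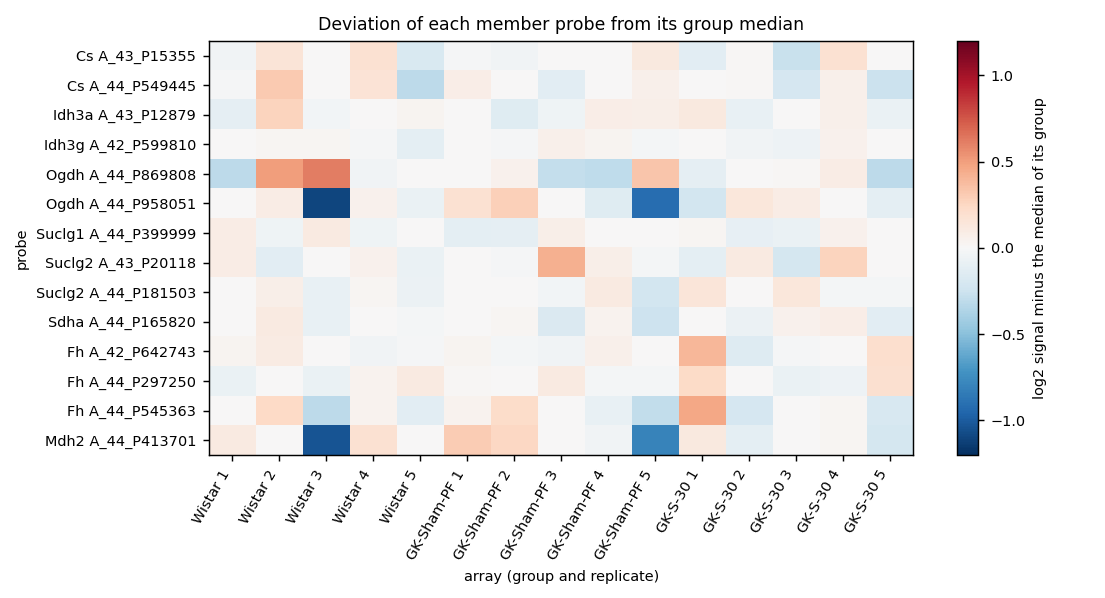
Log2 signal of each member probe (rows) on each array (columns) minus the median of its group, with blue below and red above the median. The 4 darkest blue cells are Mdh2 and Ogdh probe A_44_P958051 on Wistar replicate 3 and GK-Sham-PF replicate 5, while Cs, Suclg1 and Idh3g are pale on these arrays.

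Likeness was measured as Pearson's r over the 15 arrays between the brightest probe of each member and the brightest probe of 12365 other genes. The 3 genes nearest to Cs were Ccna1 (r = 0.94), C10h17orf58 (r = 0.93) and Rab25 (r = 0.92), and once group means were removed r was 0.67, 0.56 and 0.62. Idh3a was nearest to Ube2d3 (r = 0.93) and Suclg1 to Atg10 (r = 0.88). The brighter Ogdh probe was nearest to Vil1, an epithelial gene of the brush border (r = 0.98, with or without group means, and 0.90 over the 13 arrays without the dimmer ones). For Idh3g no gene was above r = 0.80 (Adora2a), and for the rest the highest values were 0.91 for Suclg2 (Atp2c1), 0.85 for Sdha (Prkaa2), 0.91 for Fh (Psmd1) and 0.97 for Mdh2 (Inpp5b). Without the 2 dimmer arrays r was 0.80, 0.79, 0.93 and 0.85 for these 4, and 0.54 for Nek9, which was at 0.96 with Mdh2 over all arrays. No other member was among the 3 nearest genes of any member, and all these points share the arrays and their normalization.

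The shares of all probes that passed in the 3 comparisons, 8.36%, 7.88% and 24.1%, are the background for the other genes of the cycle too. Of 12 probes for Idh3b, Dlst, Dld, Sucla2, Sdhb, Sdhc, Sdhd, Idh2 and Ogdhl, 0 passed between bypassed and sham rats by limma (1 at an unadjusted p under 0.05), and 0 by Tukey p. Between GK-Sham-PF and Wistar rats 1 passed and was lower, and between GK-S-30 and Wistar rats 0 passed by limma (2 at an unadjusted p under 0.05) and 1 by Tukey p. The gene that passed was Idh2, the NADP-dependent mitochondrial enzyme, which fell by a log2 fold change of -0.40 (A_44_P165989, limma adjusted p = 0.0431) and had -0.29 with its other probe (limma adjusted p = 0.268). Partner subunits of the members gave small values between bypassed and sham rats: 0.00 for Idh3b, -0.10 for Dlst, 0.03 for Dld, -0.07 for Sdhb, -0.06 for Sdhc, 0.03 for Sdhd, and -0.19 and -0.01 for the 2 probes of Sucla2, the ATP-forming counterpart of Suclg2.

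Around the cycle, of 16 probes for pyruvate entry, 5 passed between bypassed and sham rats (4 higher and 1 lower, against 4.77% and 3.59% of all probes) and 3 in sham against Wistar rats (all lower, against 4.14%). Between GK-S-30 and Wistar rats 4 passed (3 higher, 1 lower), against 24.1% of all probes. Pyruvate carboxylase (Pc), which makes oxaloacetate, the partner of acetyl-CoA in the Cs reaction, had 12.26, 12.13, 11.93, 12.28 and 12.23 in Wistar, 11.61, 11.70, 11.43, 11.76 and 11.23 in GK-Sham-PF and 12.38, 12.63, 12.52, 12.11 and 12.44 in GK-S-30 rats. It fell by -0.62 in GK-Sham-PF against Wistar rats (limma adjusted p = 0.00418) and rose by 0.87 in bypassed against sham rats (1.83-fold, limma adjusted p = 0.000527), with no overlap in either comparison.

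The kinases that switch off pyruvate dehydrogenase did not move together. Pdk1 had 7.03 to 7.14 in Wistar, 6.31 to 6.75 in GK-Sham-PF and 6.92 to 7.12 in GK-S-30 rats, a fall of -0.50 (limma adjusted p = 0.00172) followed by a rise of 0.44 (limma adjusted p = 0.007). Pdk2 went down at each step, from 11.90 to 12.51 over 11.05 to 11.55 to 10.03 to 11.02, by -0.82 (limma adjusted p = 0.00826) and -0.66 (limma adjusted p = 0.0333). Pdk3 was higher in bypassed than in sham rats with both probes, by 0.64 and 0.71 (limma adjusted p = 0.00789 and 0.0228), and Pdk4 gave -1.10 and -1.21 without passing (limma adjusted p = 0.142 and 0.0654). Subunits of pyruvate dehydrogenase itself (Pdha1, Pdhb, Dlat and Pdhx) did not pass between bypassed and sham rats, with values from -0.45 to 0.25. Between GK-S-30 and Wistar rats, Dlat passed as higher with probe A_44_P358384, by 0.35 (limma adjusted p = 0.0434). Its other probe gave 0.41 and did not pass (limma adjusted p = 0.114).

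Of 14 probes for carriers and the cytosolic branch, 3 passed as higher between bypassed and sham rats (against 4.77% of all probes), 3 as lower in sham against Wistar rats (4.14%) and 1, lower, between GK-S-30 and Wistar rats (24.1% in either direction). Malic enzyme (Me1), which makes NADPH and pyruvate from cytosolic malate, was among both sets with its 2 probes, at -0.55 and -0.69 for GK-Sham-PF against Wistar (limma adjusted p = 0.0332 and 0.0199) and 0.70 and 0.76 for bypassed against sham rats (limma adjusted p = 0.0106 and 0.0138). The aminotransferase Got1 rose by 0.38 between bypassed and sham rats (limma adjusted p = 0.0312). ATP citrate lyase (Acly), which splits exported citrate, fell by -0.52 between GK-Sham-PF and Wistar rats (limma adjusted p = 0.048) and had 0.33 in the next step (limma adjusted p = 0.21). Its probe had no value on GK-Sham-PF replicate 1, so both values rest on the other GK-Sham-PF arrays. The malate and 2-oxoglutarate carrier Slc25a11 was lower in GK-S-30 than in Wistar rats, by -0.43 (limma adjusted p = 0.00159).

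Of 5 probes for glutamate dehydrogenase (Glud1), which makes 2-oxoglutarate from glutamate, the mitochondrial alanine aminotransferase Gpt2 and the mitochondrial serine hydroxymethyltransferase Shmt2, 0 passed by limma between bypassed and sham rats (1 by Tukey p and 1 at an unadjusted p under 0.05) and 0 in sham against Wistar rats (0 by either). Of all probes, 8.36% and 7.88% passed by limma in these comparisons. Shmt2 passed as higher in bypassed against Wistar rats, where 11.9% of all probes did, by 0.34 (1.27-fold, SE 0.11, limma adjusted p = 0.0399), with no overlap between the groups. The 3 probes of Glud1 gave -0.07, 0.22 and 0.24 in that comparison and Gpt2 gave 0.10, none of which passed.

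**Figure D5:**
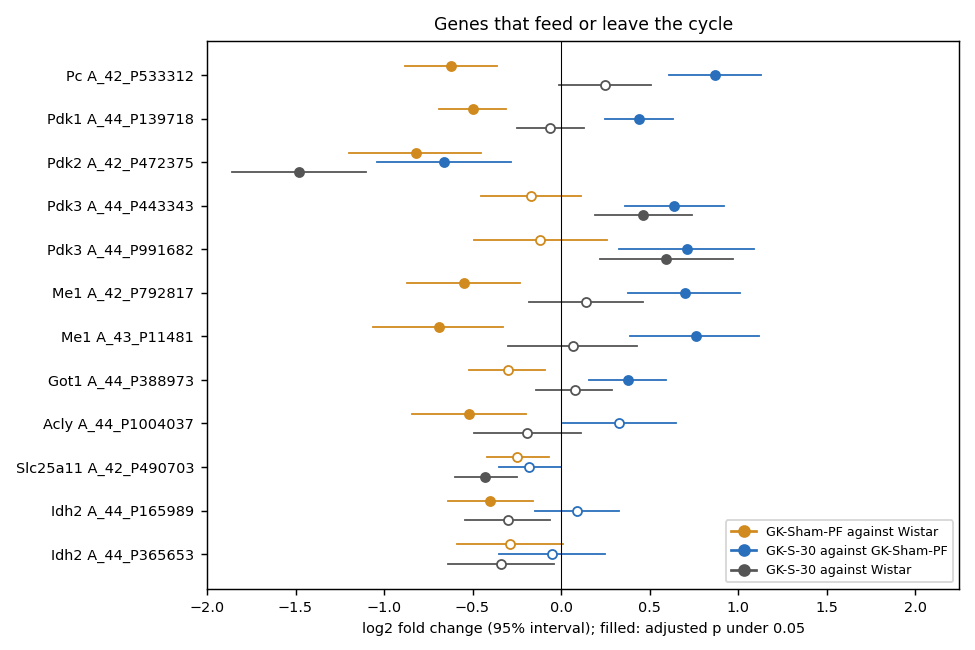
Log2 fold change with 95% interval (horizontal axis) for genes around the cycle in the 3 comparisons, filled where the limma adjusted p was under 0.05. Pc, Pdk1 and Me1 lie left of 0 in GK-Sham-PF against Wistar (orange) and right of 0 in bypassed against sham rats (blue), while all Pdk2 points lie left of 0.

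Of 22 probes for genes that follow or drive the amount of mitochondria (Tfam, Ppargc1a, Ppargc1b, Nrf1, Gabpa, Esrra, Polg, Tfb2m, Vdac1, Hspd1, Tomm20 and Cycs), 1 passed between bypassed and sham rats (1 of 3 probes of Vdac1, the pore of the outer membrane, at 0.48), 0 in sham against Wistar rats (2 by Tukey p, 3 at an unadjusted limma p under 0.05) and 4 between GK-S-30 and Wistar rats, against 8.36%, 7.88% and 24.1% of all probes. Of these 4, 1 of 3 Cycs probes and the Nrf1 probe were higher, and the dimmer Ppargc1b probe and another Vdac1 probe were lower. The dimmer Ppargc1b probe gave -0.41, but the brighter one went the other way, at 0.66 (limma adjusted p = 0.218). The other Cycs probes gave 0.28 and 0.17 (limma adjusted p = 0.108 and 0.296). The median log2 fold changes of this list were 0.01, 0.08 and 0.07. Ppargc1a, a coactivator that drives mitochondrial biogenesis, had -0.42 between bypassed and sham rats (limma adjusted p = 0.34), and the outer membrane protein Tomm20 had -0.07 (limma adjusted p = 0.771).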

How the data were processed

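Total RNA of each rat was labeled with 1 dye and put on 1 Agilent array of the rat genome. The authors deposited the intensity values of each array as Feature Extraction (version 10.7.3.1 by the file headers) wrote them, background-subtracted but not normalized between arrays, and a value table of log2 values that the authors had quantile-normalized in GeneSpring. Here log2 of the processed signal was used. Control spots and spots marked as outliers were left out (none of the rest was saturated), spots of a probe were averaged, and arrays were brought to 1 distribution by quantile normalization. The tools were R 4.3.3 with limma 3.58.1 and the package data.table (1.17.8), and matplotlib 3.10.9 for figures. Quantile normalization assumes that most probes keep their level, so all values are relative. Gene symbols were updated through RefSeq names (assembly GRCr8), and 1325 of 22503 named probes kept the name in the file. Tests were limited to the 17028 probes with a gene name that all arrays of 1 or more groups measured well above background. The share of probes well above background ran from 66.7% to 74.8% over the arrays, and the median SE of a log2 fold change was 0.149. The number of arrays, 5 a group, limits the precision. Each array is 1 rat, so p-values rest on the spread between arrays, in which rats, sample handling and slides are not separated.

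The 3 pairs of groups were contrasts of 1 limma model with group as its sole term, with Benjamini-Hochberg adjustment over 17028 probes. The methods' one-way comparison with Tukey's correction was run on the same values. Differences between 2 probes on an array were compared with two-sided exact permutation tests over 252 splits. The limma and Tukey steps were tested on simulated data. The members, the lists of other genes and the tests were chosen with earlier results of these data known. All member probes are named, as are the complex partners of members and genes of the metabolic lists with a probe past the threshold in any pair, while cell type markers are given by counts. Pdk4, Ppargc1a and Tomm20, the pyruvate dehydrogenase subunits other than Dlat and single markers were named after their values were seen. Further lists held pancreatic, immune, crypt and blood markers. Of these, 1 of 5, 1 of 8, 0 of 7 and 0 of 2 tested probes passed between bypassed and sham rats (1, 3, 1 and 0 by Tukey p, and 2, 5, 1 and 0 at an unadjusted limma p under 0.05), 1, 1, 0 and 0 between sham and Wistar rats (1, 1, 0 and 1, and 1, 1, 1 and 2) and 3, 4, 0 and 1 between bypassed and Wistar rats (3, 4, 0 and 1, and 4, 5, 1 and 2). Of all probes, 8.36%, 7.88% and 24.1% passed by limma in these comparisons. Between bypassed and sham rats, the pancreatic and the immune probe that passed were lower. There, 1 of 8 immune probes had a positive log2 fold change, and their median was -0.43. Between bypassed and Wistar rats, 3 immune probes passed as lower and 1 as higher. Probe sequences and positions (rn4) are those of the array files. Alternatives were other scalings and filters, slide and replicate number as blocks, and the omission of arrays. Likeness without the 2 dimmer arrays was added after the data were seen. Results for some genes are not reported here.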

Additional observations from a re-analysis of the deposited data

Results flagged for a closer look

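With Dixon's rule (critical value 0.71 for 5 arrays), 6 of 42 groups of member values (14.3%) held an array that stood apart. The rule flags about 1 in 20 by chance, but the 42 groups share the same arrays and are not independent. The share over all probes was not computed, so the count cannot be called particular to the members. The gap to the nearest array as a share of the group's range was 0.859 for Ogdh (A_44_P958051) and 0.852 for Mdh2, both for Wistar replicate 3 as the lowest, which is 1 of the 2 dimmer arrays. GK-Sham-PF replicate 5, the other dimmer array, was the highest for Cs (A_43_P15355, 15.29, share 0.733). GK-Sham-PF replicate 3 was the highest for Suclg2 (A_43_P20118, 10.83, share 0.783) and for Fh (A_44_P297250, 11.58, share 0.781), and Wistar replicate 5 the lowest for Idh3g (14.98, share 0.772).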

How the results depend on the processing

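No called value of a member changed sign under any alternative, though some alternatives change only the test and not the log2 fold change. In 1 alternative, probes without a gene name were added under the same background filter, which gave 27892 probes. Member probes called between bypassed and sham rats (1) became 0 with 75th percentile scaling, with these added probes, with slide as a fixed block and with the replicate block. They became 2 with normexp background correction and 3 by Tukey p. Between GK-Sham-PF and Wistar rats (2) they became 0 with slide as a fixed block and without the 2 dimmer arrays, and 4 by Tukey p. They became 1 with 75th percentile scaling, normexp, no filter on dim probes, the added probes without a gene name, 1 probe per gene and the replicate block. Between GK-S-30 and Wistar rats (4) they became 2 with 1 probe per gene and 0 with slide as a fixed block, where 1.57% of all probes passed and which rests on the 2 slides that hold arrays of 2 groups. Leaving out 1 array gave 0 to 1, 0 to 2 and 4 to 5. For the other cycle genes, counts of 0, 1 and 0 became 1, 1 and 1 without the 2 dimmer arrays (Ogdhl in the first, Idh2 in the others). The count of 1 became 0 without a filter and with slide as a fixed block or the replicate block, the last 0 became 1 by Tukey p and with slide as a random block, and leaving out 1 array gave 0 to 0, 0 to 1 and 0 to 2. Replicate numbers did not pair the rats (correlations of same-numbered arrays -0.29 to 0.20, 3 of 15 over 0.1). With the replicate block as sign changes within numbers, Cs minus Idh3g kept 0.37 (bypassed against sham), 0.30 (sham against Wistar) and 0.67 (bypassed against Wistar), with an adjusted permutation p of 0.125, the smallest the block can give here. Without the 2 dimmer arrays Cs minus Ogdh was 0.61 and 0.86 and passed between GK-S-30 and each other group. Leaving out 1 array gave, in the same order, 0.33 to 0.41, 0.27 to 0.34 and 0.63 to 0.72 for Cs minus Idh3g and 0.27 to 0.61, 0.03 to 0.47 and 0.56 to 0.86 for Cs minus Ogdh. Within the slide with 2 arrays each of sham and bypassed rats, 1 of them the dimmer GK-Sham-PF replicate 5, Cs minus Ogdh was -0.07.

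Signs changed in 36 of 1077 values of single probes, none of them called on either side. Many of these values could not change sign. Other filters, Tukey's correction, the replicate block and the omission of an array outside the compared pair leave the log2 fold change as it is. The count is therefore no measure of how stable the directions are. For bypassed against sham rats, 75th percentile scaling gave 0.02 for Idh3g, 0.05 for Sdha and 0.06 for Fh (A_42_P642743), slide as a fixed block 0.31 for Ogdh (A_44_P958051), and the omission of the 2 dimmer arrays -0.07 for Mdh2. For GK-S-30 against Wistar rats, 75th percentile scaling gave 0.07 for Idh3g, 0.09 for Ogdh (A_44_P958051), 0.03 for Suclg1 and 0.01 for Sdha, slide as a fixed block 0.45 for Ogdh (A_44_P958051), and the omission of the dimmer arrays -0.05 for Mdh2. Leaving out 1 array gave, for bypassed against sham rats, -0.28 to 0.02 for Ogdh (A_44_P958051), -0.07 to 0.01 for Sdha, -0.11 to 0.02 and -0.03 to 0.04 for Fh (A_42_P642743 and A_44_P297250) and -0.07 to 0.21 for Mdh2. For GK-Sham-PF against Wistar it gave -0.06 to 0.17 and -0.14 to 0.28 for Ogdh (A_44_P869808 and A_44_P958051), -0.07 to 0.02 for Suclg2 (A_44_P181503), -0.06 to 0.01 for Sdha and -0.17 to 0.24 for Mdh2. For GK-S-30 against Wistar it gave -0.23 to 0.07 for Ogdh (A_44_P958051), -0.05 to 0.09 for Fh (A_42_P642743) and -0.05 to 0.25 for Mdh2. The causes were not tested.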
